A study of Mus musculus with 12 samples.

Results

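The genes described here are 10 that act on procollagen inside the cell: the prolyl 4-hydroxylase subunits P4ha1, P4ha2 and P4hb, the lysyl hydroxylases Plod1, Plod2 and Plod3, the prolyl 3-hydroxylase Leprel1 (also called P3h2), its family's partner protein Crtap, the collagen chaperone Serpinh1 and the transcription factor Creb3l1. The list was drawn up by symbol, with earlier results of these data known, and all 10 were found among the 25899 genes of the table. All 10 passed the filter of a mean of at least 1 RPKM (read counts scaled by transcript length and by the reads mapped in the library), as 12094 genes did.

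The RNA came from first molar germs of the lower jaw of C57BL/6 mice at postnatal day 4, of which the apical portion, where the root forms, was taken. The mice lacked the transcription factor nuclear factor I-C (Nfic-/-, 6 libraries) or were littermates with 1 intact copy (Nfic+/-, 6 libraries), so the comparison has no wild-type group. The study's title places Nfic upstream of Hedgehog signalling in root development, and the comparison asks which transcripts differ when the remaining Nfic copy is lost. The labels do not say whether a library is 1 animal or a pool, so p-values measure the spread between these libraries, and they do not say where Nfic is interrupted. Libraries are named by genotype and by the submitters' number, 5 to 10 in each genotype.

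Estimated depth was 70.2 M to 96.4 M reads per library, at which 1 read in a 1 kb transcript is worth 0.0104 to 0.0142 RPKM. Nfic itself ranged from 11.3 to 24.5 RPKM (median 15.9) in Nfic+/- and from 7.90 to 16.5 RPKM (median 11.5) in Nfic-/- libraries. The ranges overlapped, and on the log2(RPKM + 1) scale Nfic-/- libraries were lower, with a difference of -0.52 (exact permutation test, 2-sided, p = 0.0303 over 924 assignments). That p was above 0.05 without Nfic+/- library 6 (0.0519) or 10 (0.0628), or without Nfic-/- library 5 or 6 (0.0541 each). Nfic RNA was therefore still counted in the Nfic-/- libraries, and a total over the gene cannot show a deleted part. The summed level of 15 intestinal marker genes was 154 to 210 RPKM (209.6 at most) in the 4 libraries numbered 8 and 9, of both genotypes, against 0.249 to 0.597 RPKM in the other 8, so each member's difference is also given without those 4 libraries. The sample numbers in the column names repeat, so the libraries stood on at least 2 sample sheets, taken here as numbers 5 to 7 and numbers 8 to 10, with 3 libraries of each genotype on either. No label names a sheet or a run, so this split is assumed.

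Collagen chains are modified in the endoplasmic reticulum before they fold. Prolyl 4-hydroxylases, tetramers of an alpha subunit (P4ha1 or P4ha2) and the disulphide isomerase P4hb, make the 4-hydroxyproline that stabilises the triple helix, lysyl hydroxylases prepare lysines for glycosylation and cross-linking, and prolyl 3-hydroxylases act at few sites. Serpinh1 (HSP47) binds the folded helix until it leaves the compartment, and dentin and bone, built on type I collagen, depend heavily on these steps.

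No member passed the adjusted threshold of 0.05, and none of all genes tested did (limma with Benjamini-Hochberg adjustment, 0% called, smallest adjusted p = 0.934). In Nfic-/- libraries 6 members had a lower mean log2 level and 4 a higher one, beside 6180 lower and 5914 higher of all 12094 tested genes. At an unadjusted p under 0.05, Leprel1, Crtap and Creb3l1 were lower (3 of 10, beside 2.72% of all tested genes called lower in this way) and P4ha2 and Plod2 were higher (2 of 10, beside 2.62%). The ranges of the 2 genotypes overlapped for every member, while 4 tested genes (0.0331%) lay entirely lower and 15 (0.124%) entirely higher in Nfic-/- libraries. The members' median difference was -0.14, against a median of -0.00282 and quartiles of -0.0748 and 0.0599 over all tested genes. In such bulk tissue, fewer cells of a type and less RNA per cell cannot be told apart.

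**Figure D1:**
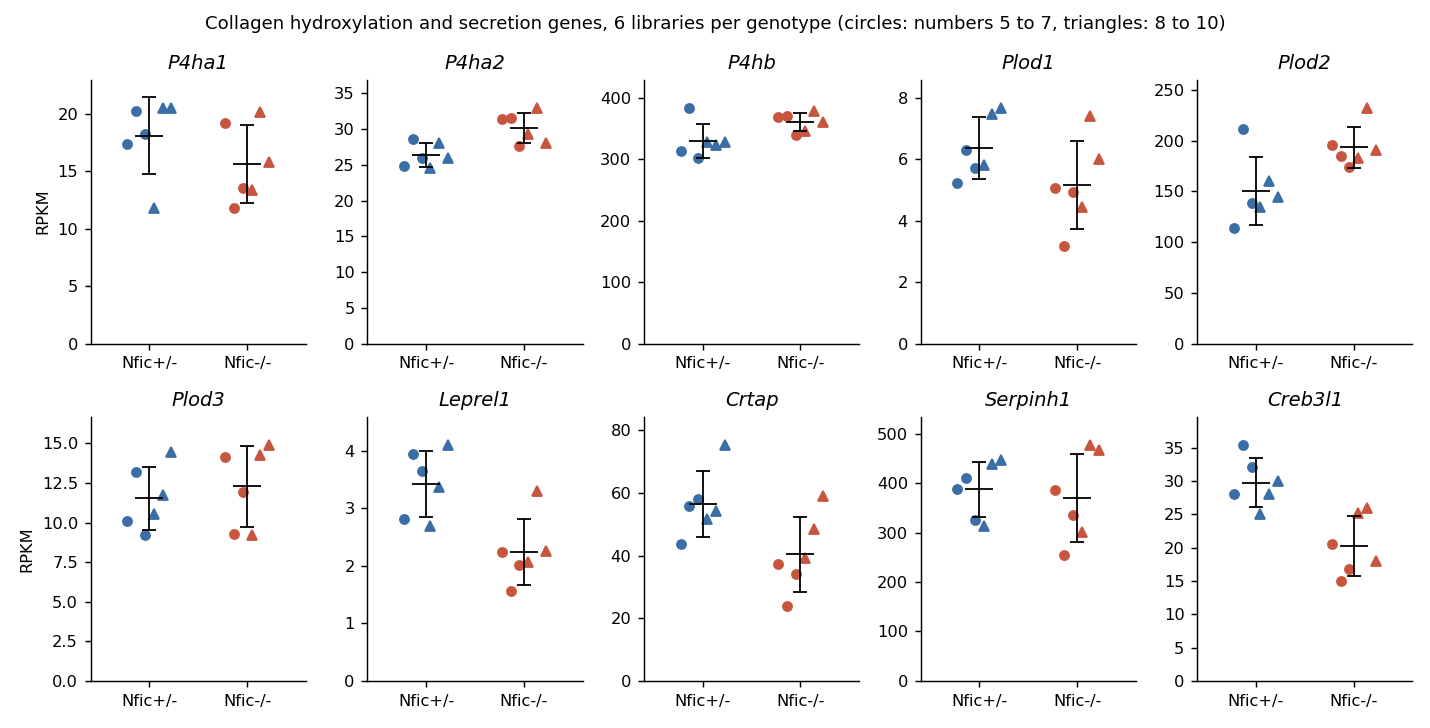
RPKM of each of the 10 members in every library, with Nfic+/- and Nfic-/- libraries side by side (circles for numbers 5 to 7, triangles for 8 to 10, bars for mean ± SD). The genotypes overlap for every member; Creb3l1 and Leprel1 sit lower, and P4ha2 and Plod2 higher, in most Nfic-/- libraries.

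**Figure D2:**
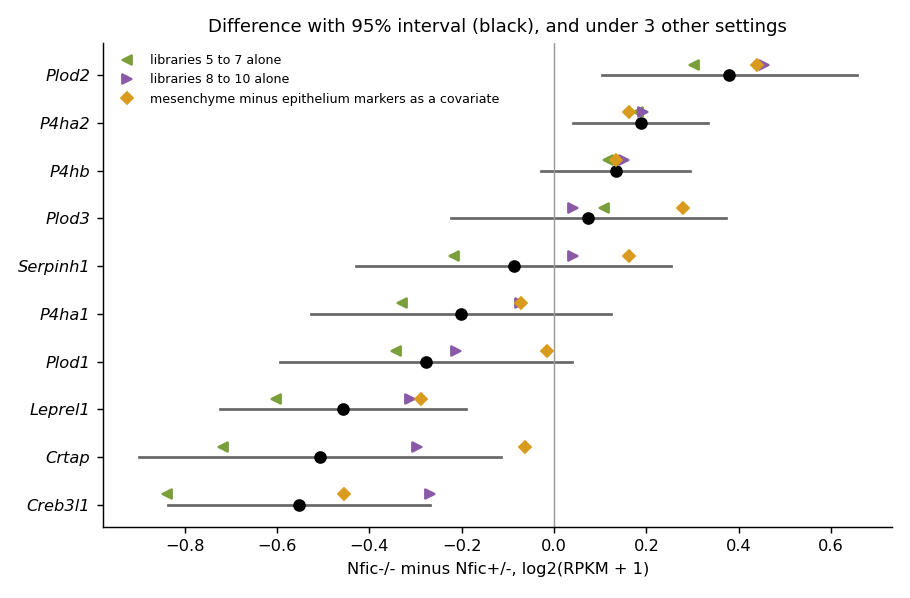
Nfic-/- minus Nfic+/- difference of each member on the log2(RPKM + 1) scale (points) with its 95% confidence interval from limma (bars). Smaller marks above each bar give the difference among libraries 5 to 7, among libraries 8 to 10 and with the tissue markers as a covariate. The intervals of P4ha2 and Plod2 lie above 0, those of Leprel1, Crtap and Creb3l1 lie below 0, and no adjusted p is under 0.05.

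Creb3l1 (OASIS) is a transcription factor anchored in the endoplasmic reticulum membrane, cut free by proteases, and known in bone-forming cells for driving collagen and secretory genes. The gene lies at chr2:91982328-92024502 on the minus strand (GRCm38). Its level was 24.96 RPKM at the lowest, 29.0 at the median and 35.3 at the highest in Nfic+/- libraries, and 14.9, 19.3 and 25.9 RPKM in Nfic-/- libraries. Of the 6 Nfic-/- libraries, 4 lay below every Nfic+/- library, and numbers 8 and 9 reached into the Nfic+/- range. The means were 29.7 ± 3.63 and 20.2 ± 4.49 RPKM (SD, n = 6 each), and the log2 difference was -0.55 (95% confidence interval -0.84 to -0.27), the most negative of the 10 (unadjusted p = 0.000973, limma adjusted p = 0.934). An exact permutation test of this gene alone gave an unadjusted p of 0.00649. The difference was -0.84 among libraries 5 to 7, -0.27 among libraries 8 to 10 and -0.81 without libraries 8 and 9. The 4 tested genes listed as other members of the membrane-anchored CREB3 and ATF6 class were 1 lower and 3 higher, with none under an unadjusted p of 0.05 and a median difference of 0.04. A further relative, Creb3l2, was listed with the export genes and differed by -0.06 (limma unadjusted p = 0.5004).

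The genes whose pattern over the 12 libraries was most like that of Creb3l1 were Lox, the enzyme that starts collagen cross-linking (Pearson r = 0.958, Spearman rho = 0.923), Zdhhc14 (0.9504 and 0.986), Enho (0.949 and 0.923), Serpinf1 (0.930 and 0.916) and Cyfip2 (0.915 and 0.867). These are descriptions over libraries that share genotype and dissection, with no test. Predicted genes and clones were left out of the ranking. Within the genotypes, r between Creb3l1 and Lox was 0.575 in Nfic+/- and 0.984 in Nfic-/- libraries.

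The alpha subunits of prolyl 4-hydroxylase carry the catalytic site, and P4hb keeps them soluble. They are targets of hypoxia-inducible factors, whose binding core is ACGTG or GCGTG. The 250 bases before the RefSeq start (GRCm38.p6) of each of the 3 subunits are shown as a description. Capitals mark these letters on either strand (CACGT and CACGC on the strand shown). P4ha1 covers chr10:59323046-59323295 on the plus strand, P4ha2 chr11:54100674-54100923 on the plus strand and P4hb chr11:120573254-120573503 on the minus strand. The P4ha2 window lies inside its GENCODE gene, which begins at chr11:54100095, so the RefSeq start used is a later one. Those of P4ha1 and P4hb lie directly before their genes.
P4ha1: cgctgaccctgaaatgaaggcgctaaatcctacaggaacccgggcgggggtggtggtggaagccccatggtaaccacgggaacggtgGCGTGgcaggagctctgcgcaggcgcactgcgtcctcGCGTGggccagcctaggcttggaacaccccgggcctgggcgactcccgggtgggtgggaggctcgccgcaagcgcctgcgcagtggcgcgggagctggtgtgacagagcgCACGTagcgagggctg
P4ha2: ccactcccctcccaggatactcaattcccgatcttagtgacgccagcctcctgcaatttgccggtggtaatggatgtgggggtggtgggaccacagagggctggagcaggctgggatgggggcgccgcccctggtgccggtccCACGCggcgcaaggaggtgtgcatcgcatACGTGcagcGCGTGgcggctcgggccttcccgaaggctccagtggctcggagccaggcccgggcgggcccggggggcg
P4hb: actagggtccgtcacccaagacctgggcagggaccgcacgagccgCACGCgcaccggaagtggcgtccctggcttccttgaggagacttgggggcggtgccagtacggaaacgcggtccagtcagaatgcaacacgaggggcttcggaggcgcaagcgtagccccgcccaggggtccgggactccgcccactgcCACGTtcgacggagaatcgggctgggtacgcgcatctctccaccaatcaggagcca
ACGTG occurs once in each of the 3 windows, 16, 78 and 56 bases before the start, and in 16.6% of all 32851 windows of this length. GCGTG occurs in each too, at 163 and 126 bases for P4ha1, 107 and 69 for P4ha2 and 205 for P4hb, and in 28.2% of all windows. The P4ha1, P4ha2 and P4hb windows are 69.6%, 70.0% and 66.8% G and C, against a mean of 53.2% over all windows. The shares over all windows are not matched for this. Among other members, the windows of Plod1, Plod3 and Crtap hold GCGTG too, and those of Plod3 and Serpinh1 hold ACGTG. Matches on both strands were counted and are descriptions of letters, not sites. The NFI recognition core TTGGC, present in 41.5% of all windows, is in none of the P4ha1, P4ha2 and P4hb windows.

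P4ha1 (chr10:59323296-59373304, plus strand) stood at 11.8, 19.2 and 20.5 RPKM (lowest, median, highest) in Nfic+/- and at 11.8, 14.7 and 20.1 RPKM in Nfic-/- libraries, so the ranges were nearly the same. The lowest Nfic+/- value belonged to library 8. The difference was -0.20 (interval -0.53 to 0.12, limma unadjusted p = 0.205). It was -0.31 without Nfic+/- library 8, -0.13 without Nfic-/- library 6 and -0.34 without libraries 8 and 9. The limma unadjusted p was 0.0317 without Nfic+/- library 8 and 0.0430 without libraries 8 and 9. These were the only 2 of 28 alternative settings under 0.05, and with the tissue markers as a covariate it was 0.691.

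P4ha2 (chr11:54100095-54131665, plus strand) stood at 24.5, 26.0 and 28.7 RPKM in Nfic+/- and at 27.6, 30.4 and 33.0 RPKM in Nfic-/- libraries. Of the Nfic-/- libraries, 4 lay above every Nfic+/- library. The difference was 0.19 (interval 0.04 to 0.33, unadjusted p = 0.0158, limma adjusted p = 0.934), a fitted fold of 1.14. It was 0.18 among libraries 5 to 7 and 0.19 among libraries 8 to 10. Without libraries 8 and 9 it was 0.16 (unadjusted p = 0.126).

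P4hb (chr11:120560298-120573253, minus strand) was far more abundant, at 302, 325 and 383 RPKM in Nfic+/- and 339, 365 and 379 RPKM in Nfic-/- libraries. Nfic+/- library 6 held the highest value of all 12, and the other 5 of its genotype lay below every Nfic-/- library. The difference was 0.13 (interval -0.03 to 0.30, limma unadjusted p = 0.0986), 0.18 without that library (unadjusted p = 0.0119) and 0.12 without libraries 8 and 9. The limma unadjusted p was under 0.05 in 2 of 28 alternative settings. P4hb exceeded the sum of both alpha subunits 7.47 ± 0.87 times in Nfic+/- and 7.92 ± 0.57 times in Nfic-/- libraries (SD, n = 6 each), in RPKM. Because P4hb is also a general disulphide isomerase, this ratio does not measure free enzyme.

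The balance between the alpha subunits differed more than their sum. P4ha2 made up 55.9% to 67.4% of their summed RPKM in Nfic+/- and 62.1% to 72.8% in Nfic-/- libraries, while the sum was 44.5 ± 4.71 and 45.8 ± 4.85 RPKM (SD, n = 6 each). The P4ha2 to P4ha1 ratio was 1.498 ± 0.29 and 1.99 ± 0.40, and 2 Nfic-/- libraries lay above every Nfic+/- library. The third alpha subunit gene, P4ha3, is counted in the list of other modification genes below.

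The lysyl hydroxylases act at different lysines. Plod1 hydroxylates lysines in the helix, Plod2 those in the telopeptides that set the kind of cross-link, and Plod3 also transfers sugars. Plod2 (chr9:92542223-92608428, plus strand) stood at 114, 142 and 211 RPKM in Nfic+/- and at 174, 188 and 232 RPKM in Nfic-/- libraries. Its exons share 346 bases with a gene on the other strand that has no value here. Strand use in counting is not given, so reads there cannot be assigned with certainty. Nfic+/- library 6 lay among the Nfic-/- values, and the other 5 lay below all of them. The difference was 0.38 (interval 0.10 to 0.66, unadjusted p = 0.0106, limma adjusted p = 0.934), a fitted fold of 1.30. It was 0.30 among libraries 5 to 7, 0.46 among libraries 8 to 10 and 0.33 without libraries 8 and 9 (limma unadjusted p = 0.0915).

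Plod1 (chr4:147909753-147936767, minus strand) was much lower, at 5.24, 6.06 and 7.67 RPKM in Nfic+/- and 3.18, 4.99 and 7.40 RPKM in Nfic-/- libraries. Of the Nfic-/- libraries, 4 lay below every Nfic+/- library. The difference was -0.28 (interval -0.59 to 0.04, limma unadjusted p = 0.0812), -0.17 without Nfic-/- library 6 and -0.33 without libraries 8 and 9. With the assumed sample sheet as a term the limma unadjusted p was 0.0467, and without Nfic-/- library 9 it was 0.0153. It was under 0.05 in 6 of 28 alternative settings, and 0.909 with the tissue markers as a covariate.

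Plod3 (chr5:136987019-136996648, plus strand) stood at 9.24, 11.1 and 14.5 RPKM in Nfic+/- and at 9.20, 13.1 and 14.9 RPKM in Nfic-/- libraries, which is nearly one range. The difference was 0.07 (interval -0.22 to 0.37, limma unadjusted p = 0.599). Leaving out 1 library at a time gave 0.02 (without Nfic+/- library 7 or Nfic-/- library 10) to 0.15 (without Nfic-/- library 8), and leaving out libraries 8 and 9 gave 0.09. Its exons share bases with Znhit1 on the other strand, and whether strand was used in counting is not given, so reads there cannot be assigned with certainty. Znhit1 stood at 9.14 ± 1.38 and 9.65 ± 2.09 RPKM (SD, n = 6 each).

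Plod2 made up most of the lysyl hydroxylase RNA per length, with a mean of 89.2% of the summed RPKM of the 3 genes in Nfic+/- and 91.8% in Nfic-/- libraries. The Plod2 to Plod1 ratio ranged from 18.9 to 33.5 in Nfic+/- and from 31.4 to 58.1 in Nfic-/- libraries, with 4 Nfic-/- libraries above every Nfic+/- library. The Plod3 to Plod1 ratio, between the 2 less abundant genes, was 1.82 ± 0.20 and 2.44 ± 0.39 (SD, n = 6 each), again with 4 Nfic-/- libraries above the Nfic+/- range. The genes at the ends of these ratios were chosen with their values known, so the ratios are given with no test.

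**Figure D3:**
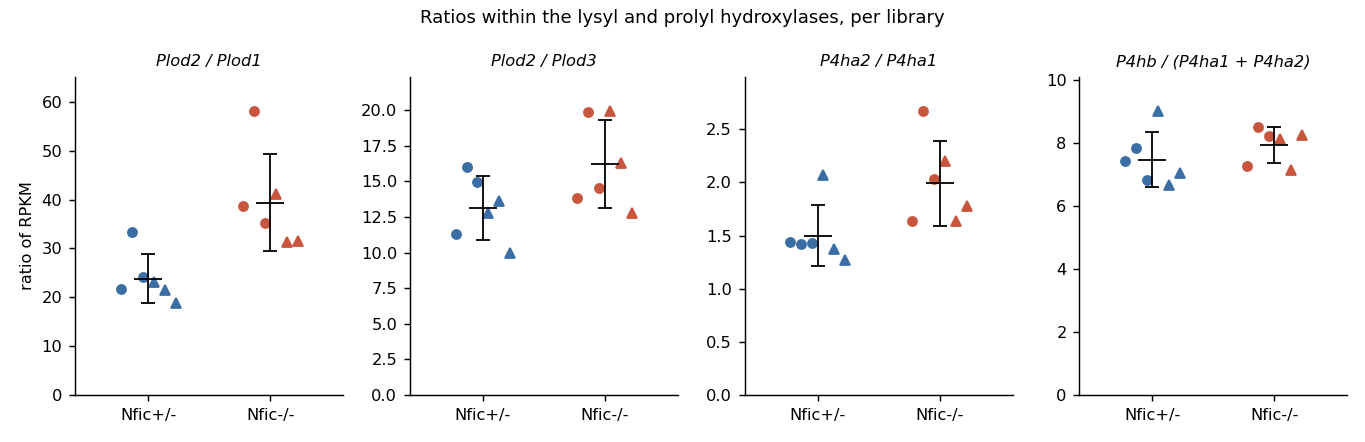
Ratios between members in RPKM for each library, by genotype (circles for numbers 5 to 7, triangles for 8 to 10, bars for mean ± SD). The Plod2 to Plod1 ratio reaches 33.5 at most in Nfic+/- libraries and 58.1 in Nfic-/- libraries, and 4 of the 6 Nfic-/- libraries lie above the Nfic+/- range.

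Leprel1 hydroxylates proline at the 3-position, chiefly in basement membrane collagen, and Crtap is the partner that holds the related enzyme Lepre1 in its complex on fibrillar collagen. Leprel1 (chr16:25959288-26105784, minus strand) was the least abundant member, at 2.68, 3.50 and 4.09 RPKM in Nfic+/- and 1.56, 2.15 and 3.301 RPKM in Nfic-/- libraries. Of the Nfic-/- libraries, 5 lay below every Nfic+/- library, and library 9 did not. The difference was -0.46 (interval -0.72 to -0.19, unadjusted p = 0.00256, limma adjusted p = 0.934), a fitted fold of 0.728. Because the added 1 RPKM is large beside such levels, this understates the change of the plain means, 3.42 ± 0.578 and 2.24 ± 0.579 RPKM (SD, n = 6 each). The exons of Leprel1 share bases with an antisense gene whose means were 1.98 and 1.33 RPKM, so part of its reads may not be its own. The difference was -0.61 without libraries 8 and 9.

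Crtap (chr9:114375134-114390675, minus strand) stood at 43.7, 55.1 and 75.1 RPKM in Nfic+/- and at 24.0, 38.2 and 58.9 RPKM in Nfic-/- libraries. Of the Nfic-/- libraries, 4 lay below every Nfic+/- library, with library 6 lowest and libraries 9 and 10 inside the Nfic+/- range. The difference was -0.51 (interval -0.90 to -0.12, unadjusted p = 0.0150, limma adjusted p = 0.934), a fitted fold of 0.703. It was -0.72 among libraries 5 to 7 and -0.30 among libraries 8 to 10, -0.62 without libraries 8 and 9, and -0.37 without Nfic-/- library 6. The Crtap to Leprel1 ratio was 16.6 ± 1.86 and 18.2 ± 4.16 (SD, n = 6 each).

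Serpinh1 is a chaperone specific to collagen. It lies at chr7:99345376-99353239 on the minus strand, and its window of 250 bases, chr7:99353240-99353489, is printed because it holds the NFI recognition core TTGGC (capitals) 5 bases before the start.
Serpinh1: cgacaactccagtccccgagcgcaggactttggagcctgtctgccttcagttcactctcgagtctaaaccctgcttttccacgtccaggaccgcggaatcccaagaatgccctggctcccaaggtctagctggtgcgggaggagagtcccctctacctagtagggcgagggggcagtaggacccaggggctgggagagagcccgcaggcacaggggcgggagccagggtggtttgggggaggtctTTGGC
Of the 7 members with a RefSeq window (P4ha1, P4ha2, P4hb, Plod1, Plod3, Crtap and Serpinh1), only Serpinh1 and Plod3 hold TTGGC. That core is in 41.5% of all windows, and a match describes letters, not a site. None of these 7 windows holds the full NFI palindrome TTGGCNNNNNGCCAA, which is in 0.0365% of all windows, or the endoplasmic reticulum stress element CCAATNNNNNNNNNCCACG, which is in 0.113%. Plod2, Leprel1 and Creb3l1 have no entry in the table.

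Serpinh1 was the most abundant member, at 314, 399 and 447 RPKM in Nfic+/- and 254, 361 and 477 RPKM in Nfic-/- libraries. Nfic-/- libraries held both the lowest value (library 6) and the highest (library 9). The difference was -0.09 (interval -0.43 to 0.25, limma unadjusted p = 0.589), and its sign was the opposite without Nfic-/- library 6 (0.01) and among libraries 8 to 10 (0.04). Without libraries 8 and 9 it was -0.15.

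Compared per length in Nfic+/- libraries, the order of levels was Serpinh1, P4hb, Plod2, Crtap, Creb3l1, P4ha2, P4ha1, Plod3, Plod1 and Leprel1. Neighbours with overlapping ranges were Serpinh1 and P4hb, Creb3l1 and P4ha2, and P4ha1 and Plod3. Serpinh1 exceeded P4hb in 8 of the 12 libraries, and Creb3l1 exceeded P4ha2 in 5 of the 12, all of them Nfic+/-. In Nfic-/- libraries Creb3l1 was 25.9 RPKM at the highest and P4ha2 27.6 RPKM at the lowest. By mean Nfic+/- RPKM among all tested genes, Serpinh1 ranked 41, P4hb 57 and Plod2 138, against 5753 for Plod1 and 8362 for Leprel1.

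The substrate was also lower in Nfic-/- libraries. Summed Col1a1 and Col1a2, the chains of type I collagen, were 2948 ± 551 RPKM in Nfic+/- and 2194 ± 619 RPKM in Nfic-/- libraries (SD, n = 6 each), with overlapping ranges of 2364 to 3845 and 1415 to 3098. Per 100 RPKM of those chains, P4ha2 amounted to 0.73 to 1.21 RPKM in Nfic+/- and 1.06 to 2.23 RPKM in Nfic-/- libraries, with 5 of the 6 Nfic-/- libraries above every Nfic+/- library. Plod2 amounted to 4.17 to 8.95 and 7.50 to 13.1 RPKM, with 3 above. P4hb (means of 11.6 and 17.6 RPKM), Serpinh1 (13.4 and 17.5 RPKM) and Plod3 (0.40 and 0.59 RPKM) each had 3 above too. P4ha1 (0.63 and 0.73 RPKM) and Plod1 (0.22 and 0.24 RPKM) each had 1 above. Creb3l1, by contrast, averaged 1.04 and 0.94 RPKM, and Crtap 1.95 and 1.91 RPKM, per 100 RPKM of type I chains. For Leprel1 the means were 0.12 and 0.10 RPKM. The lower type I sum enters every one of these ratios. These ratios are descriptions, with no test.

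Markers of tissue makeup differed in the same libraries. Of 16 mesenchyme markers 14 were tested, and 12 were lower in Nfic-/- libraries (median difference -0.59, summed level 429 to 895 RPKM in Nfic+/- and 287 to 798 RPKM in Nfic-/- libraries). Tbx18, listed as a mesenchyme marker, stayed below 1 RPKM in every library. Of 17 epithelium markers 15 were tested and all 15 were higher (median 0.30, sums of 1774 to 2726 and 2165 to 3262 RPKM), while Cldn4 and Dsg3 were below a mean of 1 RPKM.

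Over the 12 libraries, the mean log2 mesenchyme level went with Crtap (Pearson r = 0.937, permutation p adjusted over 20 relations = 0.0002, Spearman rho = 0.902, adjusted p = 0.001; the Pearson value is the smallest that 100000 permutations can give here). Without the 2 libraries farthest from the median the r was 0.841, and it was 0.884 within Nfic+/- and 0.958 within Nfic-/- libraries (exact permutation p = 0.0472 and 0.0111). Plod1 gave r = 0.837 (adjusted permutation p = 0.0089, rho = 0.762, adjusted p = 0.0353), 0.608 without those 2 libraries, and 0.665 and 0.850 within the genotypes (exact permutation p = 0.142 and 0.0444). Leprel1 gave r = 0.740 (adjusted permutation p = 0.0392, rho = 0.671, adjusted p = 0.101), 0.478 without those 2 libraries, and 0.673 and 0.645 within the genotypes (exact permutation p = 0.136 and 0.139). The mean epithelium level ran opposite to Crtap (r = -0.701, adjusted permutation p = 0.0488, rho = -0.811, adjusted p = 0.0225), with r = -0.653 without the 2 farthest libraries but -0.245 within Nfic+/- and -0.691 within Nfic-/- libraries (exact permutation p = 0.631 and 0.115), so it did not hold within both genotypes. Without libraries 8 and 9 the adjusted permutation p was 0.171 both for this relation (r = -0.726) and for Leprel1 with the mesenchyme level (r = 0.754). For Creb3l1 and Plod2 the mesenchyme relation was r = 0.546 and -0.05 (adjusted permutation p = 0.132 and 0.870), and for Plod2 the epithelium relation was 0.572 (adjusted p = 0.132).

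**Figure D4:**
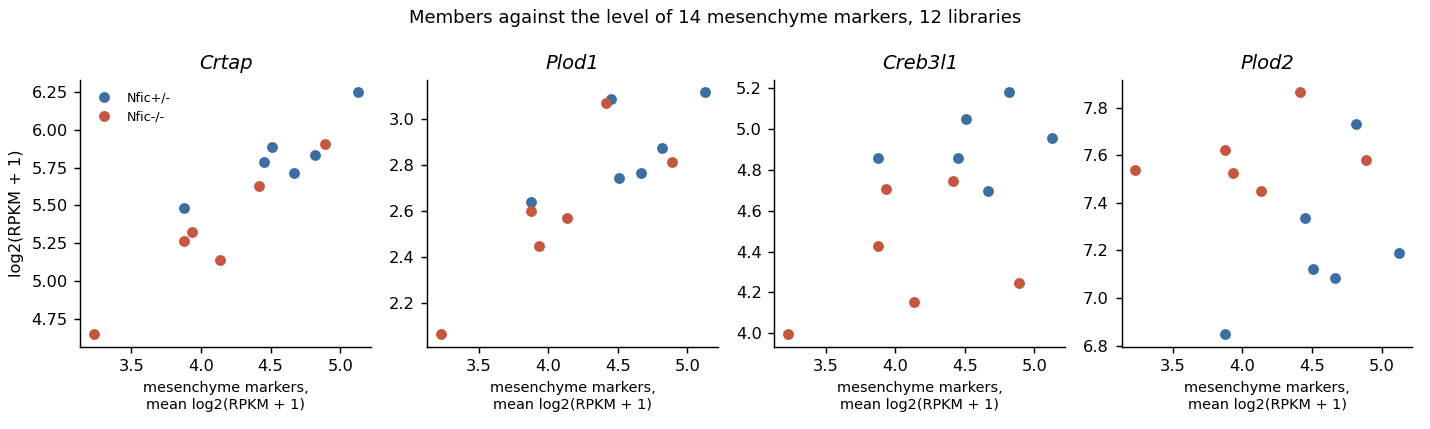
Log2(RPKM + 1) of Crtap, Plod1, Creb3l1 and Plod2 against the mean log2(RPKM + 1) of the mesenchyme markers, 1 point per library, coloured by genotype. Crtap lies along the marker level (r = 0.937), whereas Plod2 does not (r = -0.05).

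With mesenchyme minus epithelium level as a term in the fit, the difference was -0.06 for Crtap, -0.02 for Plod1, -0.29 for Leprel1, -0.45 for Creb3l1, -0.07 for P4ha1, 0.13 for P4hb, 0.16 for P4ha2, 0.16 for Serpinh1, 0.28 for Plod3 and 0.44 for Plod2, and the median of all tested genes was 0.123. Under this fit 44 genes were lower and 1148 higher at an unadjusted p under 0.05. Relative to that median, P4ha2 stood near the middle of all genes and Creb3l1 and Plod2 on either side of it. What these markers contribute to each difference was not tested further.

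The rest of the collagen pathway was described with 9 lists, none with a gene past the adjusted threshold. Of all 12094 tested genes, 6180 were lower and 5914 higher. Among 14 other modification and folding genes, 9 were lower and 5 higher (median -0.05), and 4 were lower at an unadjusted p under 0.05. They included Fkbp10, a prolyl isomerase of procollagen, at 64.9 ± 12.7 and 50.6 ± 10.1 RPKM, Fkbp7 at 27.9 ± 1.52 and 24.7 ± 2.27 RPKM, and the collagen-binding protein Sparc at 928 ± 145 and 697 ± 178 RPKM (SD, n = 6 each; Nfic+/- first here and below). With the library medians set equal the split was 7 and 7, so no direction of this list is independent of the scaling.

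The lists nearest the substrate had the most negative medians. Of 11 fibrillar collagen chains 10 were lower (median -0.48), 5 of them at an unadjusted p under 0.05. Col1a2 was 713 ± 81.8 and 559 ± 138 RPKM, a difference of -0.38, and Col5a2, which limits fibril width with type I collagen, differed by -0.48. Of 12 tested genes of processing and cross-linking, 10 were lower (median -0.41), 6 at an unadjusted p under 0.05. Lox ranged from 30.6 to 43.4 RPKM in Nfic+/- and from 15.98 to 30.5 RPKM in Nfic-/- libraries, one of the 4 tested genes whose Nfic-/- values all lay lower (difference -0.61). Pcolce, which speeds removal of the C-propeptide, and Adamts2, which cuts the N-propeptide, differed by -0.52 and -0.50. Without Nfic-/- library 6 the medians of both lists were -0.30, and with the mesenchyme term they were -0.09 for fibrillar chains and -0.21 for processing.

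Export and general folding did not share that direction. The 23 procollagen export genes were 9 lower and 14 higher (median 0.02), with Sec23a, a coat subunit, at 13.95 ± 1.66 and 11.7 ± 1.76 RPKM as the only one under an unadjusted p of 0.05, and its paralogue Sec23b at 10.2 ± 0.892 and 11.4 ± 0.756 RPKM. Of 23 tested chaperones and oxidoreductases of the endoplasmic reticulum, 15 were higher and 8 lower (median 0.09), 2 higher at an unadjusted p under 0.05. Dnajb11, a co-chaperone, differed by 0.22 and Manf by 0.25, while Herpud1, a degradation factor, differed by -0.37.

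Prolyl and lysyl hydroxylases need oxygen, iron and ascorbate. The 25 tested hypoxia-inducible genes were 11 lower and 14 higher (median 0.03), 1 higher at an unadjusted p under 0.05, with Ndrg1 at 24.96 ± 2.88 and 29.9 ± 4.12 RPKM and the glycolytic Hk2 at 8.76 ± 1.76 and 10.9 ± 2.20 RPKM. Of 8 tested genes of ascorbate and iron supply, 3 were lower and 5 higher (median 0.01), and Slc2a10, a transporter gene, differed by -0.51. Of 7 tested basement membrane and epithelial chains, the substrates of Leprel1 among them, 4 were lower and 3 higher (median -0.30), with Col17a1, an epithelial transmembrane collagen, at 90.9 ± 7.82 and 109.6 ± 9.48 RPKM.

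**Figure D5:**
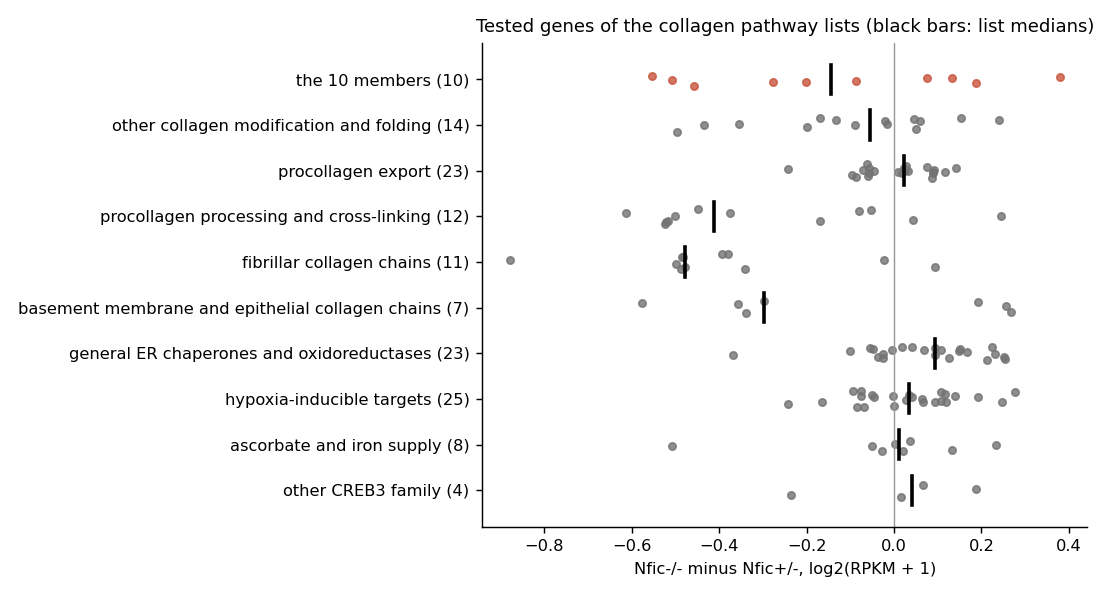
Nfic-/- minus Nfic+/- difference on the log2(RPKM + 1) scale for every tested gene of the members and of the 9 pathway lists (points), with each list's median. Fibrillar chains (median -0.48) and processing enzymes (-0.41) lie lowest, and export genes (0.02) and hypoxia targets (0.03) lie near 0.

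The genes most like Plod2 over the 12 libraries were St14, an epithelial membrane protease (Pearson r = 0.9497, Spearman rho = 0.937), Vmp1 (0.941 and 0.965), Cd24a (0.940 and 0.853), Mapre3 (0.930 and 0.881) and Ndfip2 (0.926 and 0.937). These too are descriptions over libraries that share genotype and dissection, with no test, and predicted genes and clones were left out of the ranking. Within the genotypes, r between Plod2 and St14 was 0.971 in Nfic+/- and 0.844 in Nfic-/- libraries.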

How the data were processed

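Total RNA of 12 libraries was sequenced. The aligner TopHat2 and the build mm10 are named per the submitters' processing notes; their versions, the counter, the gene models and strand use are not given in the sources. The authors deposited log2 RPKM per gene, with genes without reads at a floor. The base of 2 was settled from the summed RPKM. Values were turned back to RPKM, and depth was estimated from the steps of low values with GENCODE M21 exon lengths (96.0% of 14283 low values were whole reads within 0.02 reads), so it is approximate. Intervals cover the spread between libraries only.

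Genes with a mean of at least 1 RPKM were tested on log2(RPKM + 1) with limma 3.58.1 (R 4.3.3, variance trend, genotype as the only term, 2-sided) and Benjamini-Hochberg adjustment over all tested genes at 0.05. The log2 fold understates the change of low genes. Single-gene tests were exact permutations and correlations used 100000 permutations (scipy 1.17.1). The code was tested on simulated data. Members, gene lists and ratios were chosen with earlier results of these data known. Named genes were the members, Nfic, the genes with the 3 smallest unadjusted p-values of a list (not all printed) and the 5 most alike genes for Creb3l1 and Plod2. Predicted genes and clones were left out when the most alike genes were ranked. Type I chains and the overlapping genes were added as references. Loci are from GENCODE M21 (GRCm38) and promoter windows from RefSeq (GRCm38.p6); 24987 identifiers matched. Alternatives covered the pseudocount, filter, scaling, variance trend, replicate number, sample sheet, tissue markers and left-out libraries. Marker lists for odontoblast, ameloblast, follicle, cartilage, muscle, endothelium, macrophage, erythroid and nerve are given at the end.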

Additional observations from a re-analysis of the deposited data

Results flagged for a closer look

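Single libraries stood apart from the other 5 of their genotype for 3 members, by the gap to the nearest library set against the group's range. Nfic+/- library 8 held P4ha1 at 11.8 RPKM, against 17.3 RPKM for the next lowest. Nfic+/- library 6 held P4hb at 383 RPKM, against 327 RPKM for the next highest. Nfic-/- library 9 held Plod2 at 232 RPKM, against 196 RPKM for the next highest. Chance flags about 1 in 20 such groups, and each member was looked at in both genotypes.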

How the results depend on the processing

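No gene passed the adjusted threshold under any of the 28 alternatives. Members other than Serpinh1 kept their sign in each alternative run (Leprel1 was not tested under the filter at 5 RPKM). Serpinh1 changed sign with the tissue markers as a covariate (0.16), without both libraries numbered 6 (0.032), among libraries 8 to 10 (0.040) and without Nfic-/- library 6; leaving out each library in turn gave -0.17 to 0.013. The exact permutation p of P4hb was 0.0433 where limma gave 0.0986, both unadjusted. For Nfic the difference ranged from -0.63 to -0.41 with each library left out, and its exact p was above 0.05 without Nfic+/- library 6 (0.0519) or 10 (0.0628) or Nfic-/- library 5 or 6 (0.0541 each). Without libraries 8 and 9, 2 relations with tissue markers (Crtap and Plod1 with mesenchyme) had an adjusted p under 0.05 instead of 4. At an unadjusted p under 0.05, 4 members were lower and 0 higher there, beside 188 and 124 of 11988 genes, and among libraries 8 to 10 alone 0 and 1, beside 106 and 167 of 12351. The cause of these shifts was not tested. The number of all genes at an unadjusted p under 0.05 was 646, and 1188 after quantile normalization, 1245 with library medians set equal and 1091 after rescaling; leaving out each library in turn gave 318 to 1236. Plod1 had an unadjusted p of 0.0202 to 0.0286 under those 3 scalings. The limma unadjusted p was also lower there than in the main fit for Plod2 (0.000961 to 0.00155), Leprel1 (0.000193 to 0.000299) and Crtap (0.00319 to 0.00420). For P4ha2 it was higher (0.0235 to 0.0344). Equal numbers are not stated to mark a litter, and deviations of equal-numbered libraries correlated from 0.005 to 0.802, with the partner closest for 3 of 6 numbers. With the replicate number as a block, 0 genes passed, but the smallest limma adjusted p was 0.0872, against 0.934 in the main fit. With that block 981 genes, 608 lower and 373 higher, had an unadjusted p under 0.05, Plod1 among them (0.0337). Depth does not limit the members, which all lie far above the value of 1 read.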

Other observations

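Markers of other cell types were counted in the same way. Of 9 tested odontoblast markers 8 were lower in Nfic-/- libraries (median difference -0.49), as were 9 of 9 of the follicle and ligament (median -0.61), 6 of 6 of endothelium (-0.42) and 8 of 8 of macrophages (-0.44), with none past the adjusted threshold. Ameloblast markers were 2 lower and 5 higher (0.18), erythroid markers 1 lower and 6 higher (0.04), and the few tested markers of cartilage (3, median -0.02), muscle (2, 0.34) and nerve (2, 0.02) went in no common direction except the 2 of muscle, both higher. Summed muscle markers reached 42.1 RPKM in Nfic-/- library 9 and at most 8.11 RPKM in Nfic+/- libraries. Those of ameloblasts summed to 36034 to 142043 RPKM in Nfic+/- and 52825 to 140049 RPKM in Nfic-/- libraries. The 10 tested intestinal markers were 2 lower and 8 higher (median 0.05). What these cell types contribute to the members was not tested.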
